A study of Mus musculus with 24 samples.

Results

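Cortex RNA of 5xFAD mice that carried a variant of Plcg2 was set against cortex RNA of 5xFAD mice without one, with both variants pooled. All 24 libraries of the series entered: 16 variant libraries, 8 of them from 5xFADM28L mice and 8 from 5xFADP522R mice, and 8 from 5xFAD mice. The titles mark each variant as homozygous (HOM) and the 5xFAD group as WT. Every group was 7.5 months old, was labelled as transgenic, and held 4 libraries lettered F in the title and 4 lettered M. The variant value was the mean of the M28L and the P522R estimate, so that each variant weighed the same. Genes passed, and are named called, where p adjusted by Benjamini-Hochberg over all genes tested lay below 0.05. A gene is named shared where it was called in the mean and in each variant against 5xFAD, in 1 direction.

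The 5xFAD line carries human transgenes, APP among them, with familial Alzheimer's disease mutations, driven in neurons by the Thy1 promoter, so every group compared had the amyloid transgenes. PLCG2 is a phospholipase that cleaves a membrane lipid into messengers for calcium release and protein kinase C. In the brain it is found mainly in microglia, where it acts downstream of receptors such as TREM2 and Fc receptors. The P522R variant is known from human genetics as protective against Alzheimer's disease, and M28L as a risk variant.

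Both variant comparisons use the same 8 5xFAD libraries, so a deviation of those libraries moves both in 1 direction, and the values of each variant are given side by side. The animal numbers in the titles run from 1177 to 1270 in 5xFAD and from 8 to 106 in both variants. The labels do not say what the numbers mark. An effect that both variants have in common and a difference between cohorts of animals therefore cannot be told apart in the values that follow. Each library was taken as 1 mouse, and p-values measure the spread between these libraries.

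Total counts ran from 79230161 to 115154197 per library. Fewer genes were detected (a count above 0) in the variants, 26169 ± 1537 (SD, n = 16), than in 5xFAD, 28368 ± 366 (SD, n = 8), with an exact two-sided permutation adjusted p = 0.0042 over 5 library measures. Bc1, a short neuronal RNA, took 5.81 ± 2.14% (SD, n = 8) of the counts in 5xFAD, 4.0 ± 0.922% (SD, n = 8) in M28L and 10.2 ± 4.55% (SD, n = 8) in P522R. The Bc1 share thus moved in opposite directions in the variants. The part of the number of detected genes in the results was not tested. Cortex was the labelled tissue, and the neuronal markers (Rbfox3, Snap25, Syt1, Slc17a7, Gad1) summed to 4929 to 6915 CPM, the usual depth-scaled read count of a gene, in every library.

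**Figure D1:**
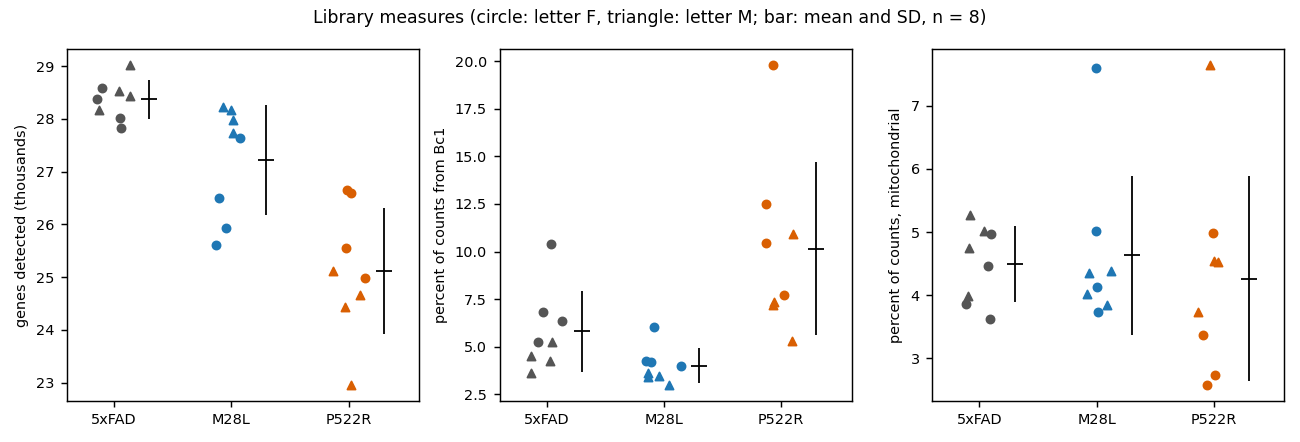
Genes detected, percent of counts from Bc1 and percent of counts from mitochondrially encoded genes (y axes) in each library, by genotype (x axis); points are libraries, with the mean and SD beside them. Detected genes are fewest in P522R, between 22958 and 26648, while the Bc1 share is lowest in M28L and highest in P522R.

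Of 21280 genes tested, 1701 (7.99%) were called in the mean of the variants, 1038 higher (4.88%) and 663 lower (3.12%). With upper-quartile scaling in place of TMM the split was 809 higher and 947 lower. P522R alone differed from 5xFAD at 6344 genes (29.8%) and M28L at 258 (1.21%), and P522R differed from M28L at 7405 (34.8%). By direction, P522R had 15.0% of all genes called higher and 14.8% lower, and M28L 0.503% and 0.71%, the shares against which the list counts of each variant stand. The P522R count was 889 with the Bc1 share as a covariate and 2563 without the 5 libraries above 10% Bc1, and the M28L count 72 and 309. Of the genes called in the mean 1312 were called in P522R with an M28L estimate of the same sign that did not pass, 75 were called in M28L and not in P522R, and 227 had estimates of opposite sign. Shared genes numbered 62 (0.291%), 44 higher and 18 lower. Their median absolute difference was 0.56 on the log2 scale, against 0.33 over all genes called in the mean. Of the shared genes 53 are protein-coding, 8 differed by over 1 on the log2 scale and 27 by under 0.5.

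**Figure D2:**
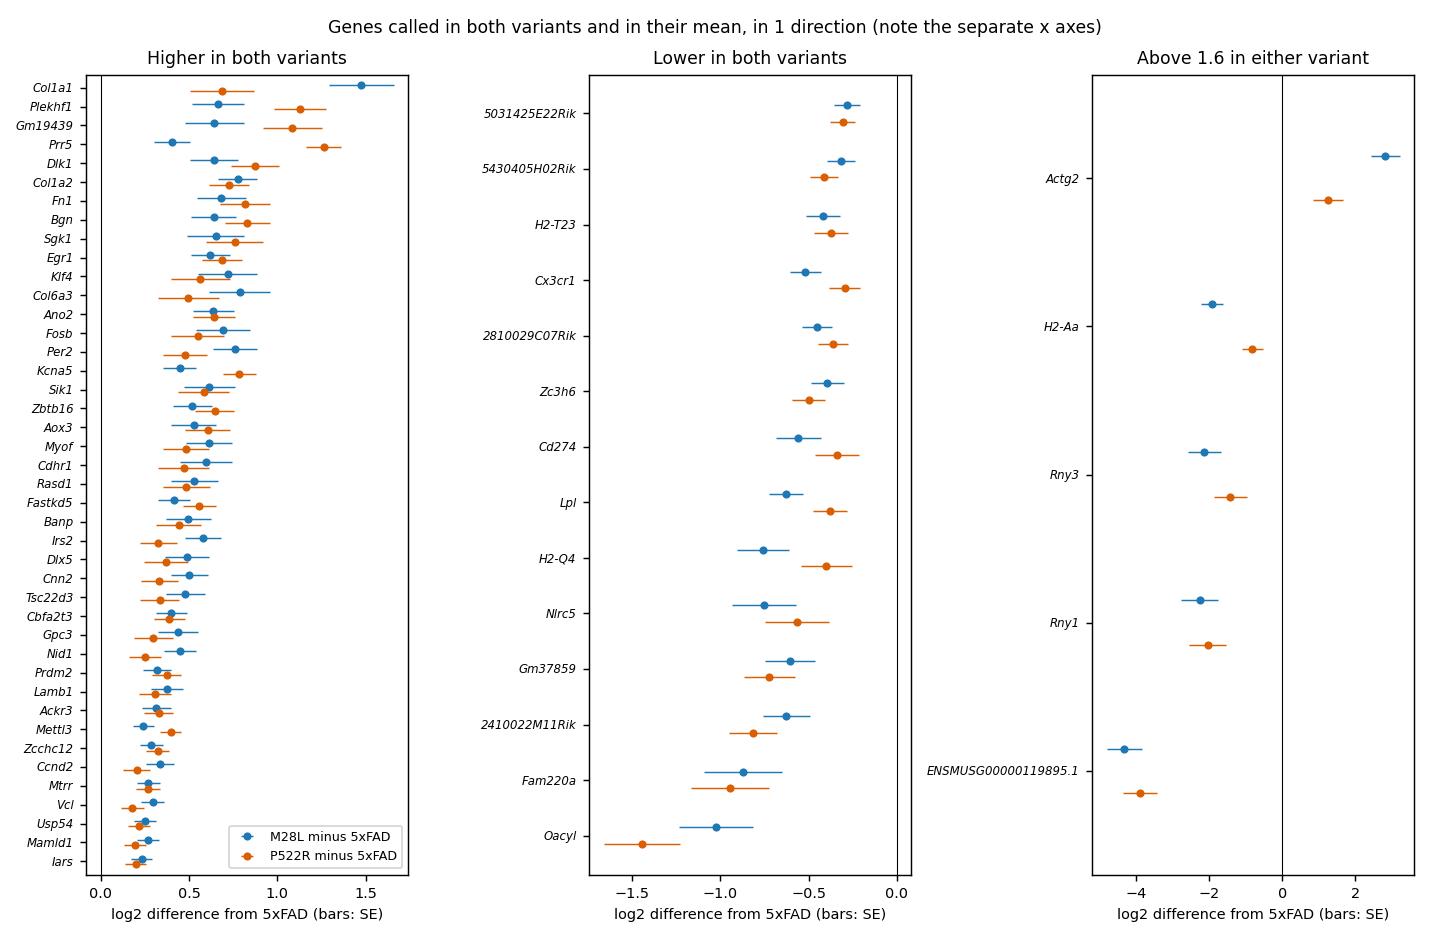
Log2 difference from 5xFAD (x axes, on separate scales) with its SE for 61 of the 62 shared genes (rows), for M28L in blue and P522R in orange. Most pairs of points lie close together, while Col1a1, Actg2 and H2-Aa differ more in M28L and Prr5 differs more in P522R.

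Plcg2 itself was not a shared gene. It ranged from 6.08 to 13.2 CPM (median 9.32) in 5xFAD, 6.65 to 12.3 (median 8.04) in M28L, and in P522R from 10.5 to 31.7 (median 18.3). It lay on chromosome 8, 118225030 to 118361881, by the deposited table, whose build is not named. The mean of the variants was 0.47 higher (SE 0.12, edgeR adjusted p = 0.019), with 1.04 in P522R and -0.11 in M28L (adjusted p = 0.86). The call was lost without 5xFAD replicate 1180 or 1270. Of 32 tested genes around PLCG2 signalling, Plcg2 and Nfatc1, a calcium-dependent transcription factor, were called higher. Tlr2, an innate immune receptor, Cd33, an inhibitory receptor of myeloid cells, and Prkcb, a protein kinase C, were called lower. None of the 32 was shared. App was 0.05 higher (SE 0.06, adjusted p = 0.70) and Thy1 -0.08 (SE 0.08, adjusted p = 0.63), with overlapping ranges in all groups.

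Antigen presentation genes were lower in the mean of the variants. Of 22 tested, 10 were called lower in the mean and 0 higher, with a median of -0.40 against -0.02 over all genes, and 3 were shared (H2-Aa, H2-T23 and Nlrc5). No estimate of the mean lay above 0 in the list. Alone, M28L had 0 called higher and 10 lower, and P522R 0 and 3, where 3 of 22 is no larger a share than the 14.8% of all genes. In bulk tissue fewer cells of a type and less RNA per cell cannot be told apart, here and for the other cell type lists. The class II genes present peptides of engulfed proteins to CD4 T cells, and the class I genes present peptides from inside the cell to CD8 T cells. H2-Aa encodes the alpha chain of a class II molecule (chromosome 17, 34501718 to 34506797 by the table). It ranged from 6.74 to 17.0 CPM (median 9.10) in 5xFAD, 1.33 to 4.39 (median 2.64) in M28L, and in P522R from 1.58 to 13 (median 6.38). Every M28L library lay below every 5xFAD library, and 4 of 8 P522R libraries did. H2-Aa fell by 1.37 in the mean (SE 0.24, adjusted p = 0.0013), by 1.92 in M28L and by 0.82 in P522R (adjusted p = 0.035). The difference between the variants passed the test as well, at 1.11 (SE 0.30, adjusted p = 0.0046). By letter, the P522R F libraries had 5.98 to 12.97 CPM and overlapped the 5xFAD F libraries, at 6.74 to 15.61. The P522R M libraries had 1.58 to 6.77 CPM and lay below the 5xFAD M libraries, at 7.28 to 17.03. The H2-Aa estimate of the mean was -0.83 with the F libraries alone and -1.87 with the M libraries alone. Its difference between the letters was not called.

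The other class II genes were called in the mean through M28L. H2-Ab1, the beta chain that pairs with H2-Aa, fell by 1.06 (SE 0.22, adjusted p = 0.0041), with -1.63 in M28L and -0.49 in P522R (adjusted p = 0.16). Cd74, the class II chaperone, fell by 1.05 (SE 0.23, adjusted p = 0.0060), with -1.76 and -0.33 (adjusted p = 0.39). H2-Eb1 fell by 0.89, with -1.22 and -0.56 (adjusted p = 0.084). H2-Ab1, Cd74 and H2-Eb1 were named after their values were seen, and in each of them every M28L library lay below every 5xFAD library. Ciita, the master activator of class II genes, was at 0.254 CPM in 5xFAD and was not called (-0.72, SE 0.54, adjusted p = 0.46).

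H2-T23, a nonclassical class I gene read by inhibitory receptors of natural killer cells, ranged from 18.8 to 28.8 CPM in 5xFAD, 15.2 to 23.7 in M28L and 12.7 to 23.4 in P522R, so the groups overlapped. It fell by 0.40 (SE 0.08, adjusted p = 0.0041), with -0.42 in M28L and -0.37 in P522R. Nlrc5, the activator of class I genes, fell by 0.66 (SE 0.15, adjusted p = 0.0090), with -0.75 and -0.57. It ranged from 1.88 to 2.96 CPM in 5xFAD, 1.0 to 1.96 in M28L and 0.648 to 2.7 in P522R, and 7 M28L and 6 P522R libraries lay below every 5xFAD library. H2-Q4, which is outside the list, fell by 0.58 (SE 0.12, adjusted p = 0.0050), with -0.76 in M28L and -0.40 in P522R. Between the variants H2-T23 (adjusted p = 0.76), Nlrc5 (adjusted p = 0.46) and H2-Q4 (adjusted p = 0.057) did not pass, and H2-D1 fell by 0.37 (adjusted p = 0.017) without a call in P522R (-0.16, adjusted p = 0.31). H2 genes share sequence with each other, so reads may have been divided between them and single H2 values are uncertain. Cd274, which encodes the checkpoint ligand PD-L1, fell by 0.45 (SE 0.11, adjusted p = 0.010), from a median of 4.72 CPM in 5xFAD to 3.17 in M28L and 3.57 in P522R.

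The promoters of these H2 genes carry a conserved module, whose X2 part resembles a cAMP response element and whose Y part is a CCAAT box, and on which CIITA and NLRC5 act as coactivators. The 130 bases before the start are shown for the 3 shared H2 genes and for H2-D1, from RefSeq on GRCm38.p6. All 4 were called lower in the mean, though H2-D1 was not called in P522R. Other H2 genes called in the mean are counted after them. A part of Nlrc5 or Ciita in these values was not tested. Capitals mark the CCAAT box on either strand and, also on either strand, the core of the cAMP response element, TGACG, alone or within the whole element TGACGTCA. The windows are chr17:34287824-34287953 (minus strand) for H2-Aa, chr17:35379487-35379616 (plus strand) for H2-Q4, chr17:36032702-36032831 (minus strand) for H2-T23 and chr17:35262964-35263093 (plus strand) for H2-D1.
H2-Aa: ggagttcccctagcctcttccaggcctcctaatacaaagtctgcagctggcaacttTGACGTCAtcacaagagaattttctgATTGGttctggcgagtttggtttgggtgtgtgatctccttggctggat
H2-Q4: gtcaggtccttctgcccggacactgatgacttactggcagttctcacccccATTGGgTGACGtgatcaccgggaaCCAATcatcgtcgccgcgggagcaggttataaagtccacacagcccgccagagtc
H2-T23: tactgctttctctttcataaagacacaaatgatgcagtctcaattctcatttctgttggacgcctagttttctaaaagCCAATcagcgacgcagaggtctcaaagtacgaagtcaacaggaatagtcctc
H2-D1: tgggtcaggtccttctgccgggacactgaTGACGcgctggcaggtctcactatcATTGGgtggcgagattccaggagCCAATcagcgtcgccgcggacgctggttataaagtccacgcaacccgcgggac
All 4 windows hold a CCAAT box on one strand or the other, which 22.4% of 32851 promoter windows of the same length do, and 3 of the 4 also hold TGACG, against 3.12% of windows with both. In H2-Aa and H2-D1 TGACG lies farther from the start than every CCAAT box, but in H2-Q4 it lies between the CCAAT boxes. The H2-Q4 match therefore cannot be taken as the X2 part of the module, and the count of 3 covers the letters without their order. The H2-Q4 and H2-D1 windows also share long stretches of letters, so their matches are not independent. Of the other H2 genes called in the mean that have such a window, H2-K1 holds both, and H2-Eb1 and H2-Oa hold the CCAAT box without TGACG. H2-Aa holds the whole TGACGTCA, 74 bases before its start, as 1.3% of windows do. A match describes the letters only.

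Cx3cr1 and Lpl were the shared genes of the microglial lists. Cx3cr1, the microglial receptor for the neuronal chemokine fractalkine, ranged from 98.0 to 192 CPM (median 147) in 5xFAD, 74.7 to 137 (median 88.3) in M28L, and in P522R from 71.8 to 165 (median 115). It fell by 0.41 (SE 0.07, adjusted p = 0.0018), by 0.52 in M28L and by 0.30 in P522R, with overlapping groups. Lpl, a lipase of lipid-handling microglia, had 41.2 to 68.8 CPM in 5xFAD, 28.7 to 48.6 in M28L and 30.9 to 48.9 in P522R, and fell by 0.50 (SE 0.08, adjusted p = 0.00062). For the wider group the variants are given side by side. Of 34 disease-associated microglia genes, the state taken up near plaques, 8 were called lower in the mean and 0 higher, while 18 were called lower and 0 higher in M28L, and 2 lower and 5 higher in P522R. The P522R counts of 34 lie at or below that variant's shares over all genes. The median of the list was -0.62 in M28L and 0.18 in P522R. Of 25 homeostatic microglia genes 3 were called lower (Cx3cr1, Tgfbr2 and Siglech) and Maf was called higher, with 12 of 25 estimates above 0 and a median of -0.03.

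Some genes moved in opposite directions in the variants. Of the 16 genes called in both variants with opposite signs, 10 were lower in M28L and higher in P522R, and none was called in the mean. Gpnmb, a glycoprotein of lysosome-rich myeloid cells, ranged from 6.88 to 24.3 CPM in 5xFAD, 3.32 to 5.35 in M28L, and in P522R from 7.16 to 63.8. Its difference was -1.61 in M28L, 0.71 in P522R and -0.45 in the mean (SE 0.19, adjusted p = 0.14). St14, a membrane protease, and Capg, an actin-capping protein, had -1.24 and -0.98 in M28L beside 0.51 and 0.47 in P522R. Wfdc17, a secreted protein of activated macrophages, had -1.66 and 0.97.

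Genes of meninges and fibroblasts were higher in the mean of the variants. Of 22 tested, 14 were called higher in the mean and 0 lower, with a median of 0.48, and 4 were shared (Col1a1, Col1a2, Fn1 and Bgn). Alone, M28L had 5 called higher and 0 lower, and P522R 16 and 0. Fibroblasts in the brain lie in the meninges and around large vessels and make collagen I, fibronectin and proteoglycans. Col1a1, a chain of collagen I (chromosome 11, 94827050 to 94843868), ranged from 3.04 to 7.22 CPM (median 5.78) in 5xFAD, 7.88 to 24.2 (median 17.2) in M28L, and in P522R from 7.45 to 12.8 (median 8.75). No variant library overlapped the 5xFAD libraries. It rose by 1.08 (SE 0.16, adjusted p = 0.00041), by 1.48 in M28L and by 0.69 in P522R, and M28L exceeded P522R (-0.79 for P522R minus M28L, SE 0.18, adjusted p = 0.0012). Within the F libraries the mean rose by 1.61 and within the M libraries by 0.62.

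Col1a2, the partner chain, was as high in P522R as in M28L. It ranged from 9.29 to 14.9 CPM in 5xFAD, 18.2 to 28.7 in M28L and 16.2 to 27.3 in P522R, again without overlap, and rose by 0.75 (SE 0.10, adjusted p = 0.00014). Fn1, fibronectin, rose by 0.75 (SE 0.13, adjusted p = 0.00080), from a median of 26.7 CPM to 40.5 in M28L and 45.1 in P522R. Bgn, the proteoglycan biglycan, rose by 0.74 (SE 0.11, adjusted p = 0.00045), from 13.4 to 19.3 and 23.2 CPM. In Fn1 and Bgn all 8 P522R libraries lay above every 5xFAD library, as did 5 and 7 M28L libraries. Dcn, the fibroblast proteoglycan decorin, rose by 0.47 (SE 0.09, adjusted p = 0.0021) and Foxc2, a transcription factor of the meninges, by 1.09 (SE 0.14, adjusted p = 0.00014), each called in P522R and not in M28L (Dcn adjusted p = 0.15, Foxc2 adjusted p = 0.088). Both were named after their values were seen. Of the 28 tested genes of the matrix list 7 were called higher, 1 lower and 0 shared, with 4 higher without 5xFAD replicate 1180, 1181 or 1190. Over all genes those fits called 634, 555 and 793 higher, in place of 1038. Shared genes outside these lists included Col6a3 (0.64, SE 0.15, adjusted p = 0.011), Nid1, which links laminin to collagen IV (0.35, SE 0.08), and Lamb1, a laminin chain (0.34, SE 0.08). Nid1 and Lamb1 were named after their values were seen, and the shared rule held in 19, 17 and 13 of 24 fits with 1 library left out for Col6a3, Nid1 and Lamb1.

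**Figure D3:**
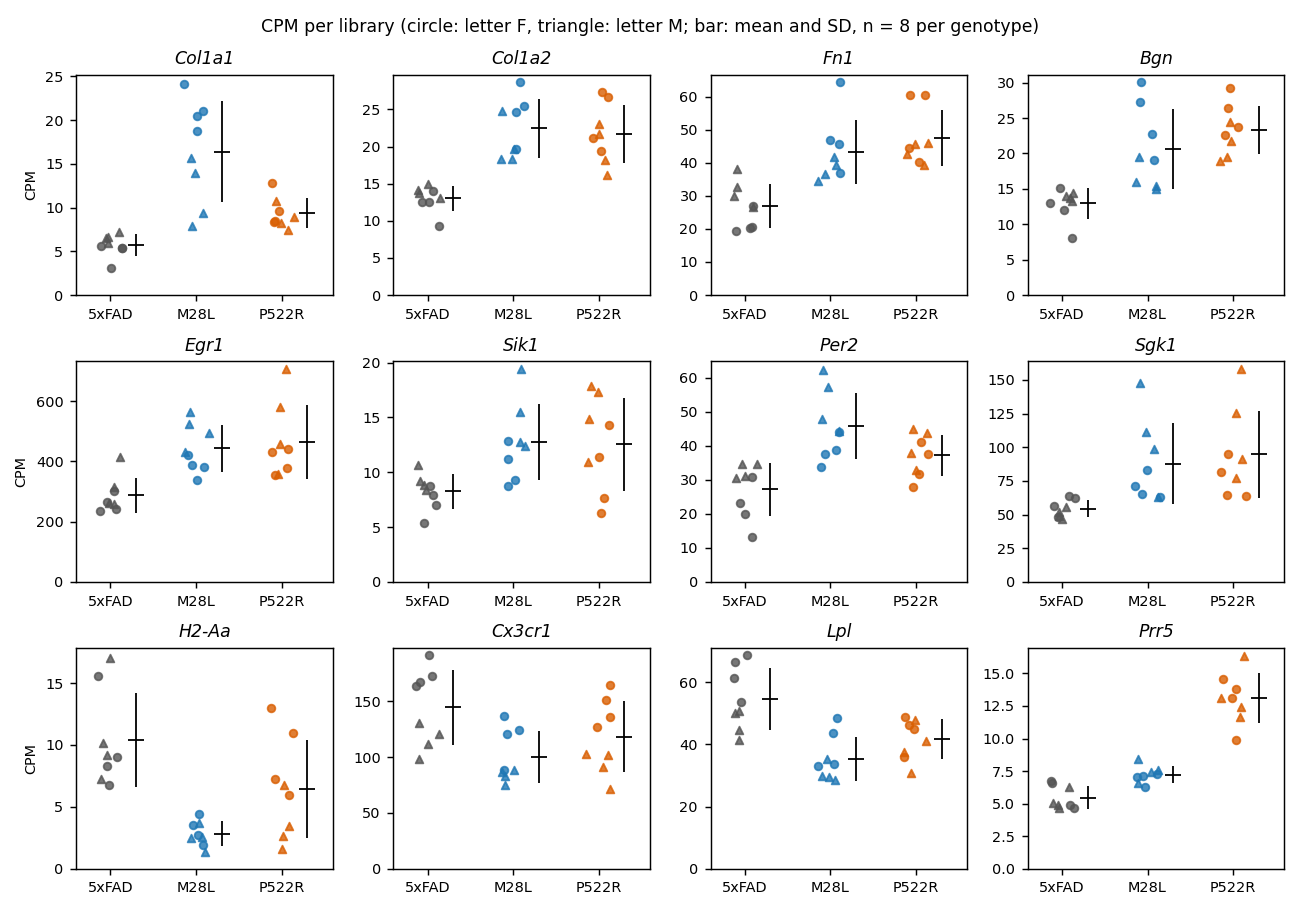
CPM (y axes, from 0) of 12 shared genes in each library by genotype, with circles for letter F, triangles for letter M, and the mean and SD beside them. The 5xFAD libraries lie below all variant libraries for Col1a1 and Col1a2, while the ranges of the immediate early genes, Cx3cr1 and Lpl overlap.

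The fibroblast marker sum (Dcn, Lum, Col1a1, Col1a2) ran from 28.1 to 39.3 CPM in 5xFAD, 43.8 to 72.4 in M28L, and in P522R from 50.1 to 61.4. Neither variant overlapped 5xFAD, while the variants overlapped each other. Of its 4 genes 3 were called higher, against 4.88% of all genes tested. The sum holds Col1a1 and Col1a2, given above, so it is not a separate result. Marker genes of other tissue at the cortex border were counted beside it. Of 14 choroid plexus genes all 14 estimates lay above 0 and 3 were called higher, among them Kcnj13, a potassium channel of that epithelium (0.87, SE 0.19, adjusted p = 0.0065). Of these 14, 0 were shared, with 1 called higher in M28L and 4 in P522R. The choroid marker sum was 3.95 to 8.34 CPM in 5xFAD, up to 19.0 CPM in P522R and up to 257.5 CPM in M28L, with an M28L median of 6.13. Of 13 border macrophage genes 5 were called higher, among them Lyve1 (0.70, SE 0.16, adjusted p = 0.0093). Of these 13, 0 were shared, with 0 called in M28L and 7 called higher in P522R. The mural marker sum (Pdgfrb, Rgs5, Acta2, Myh11) overlapped between groups, at 67.7 to 99.97, 74.8 to 88.1 and 71.9 to 107.7 CPM. Of 14 mural cell genes 3 were called higher in the mean, Acta2 among them, and 0 lower. Estimates lay above 0 in 11 of the 14, and 0 were shared. Alone, M28L had 0 called, and P522R 9 higher and 0 lower. The part of tissue from the cortex border in the matrix genes was not tested. Without the 5 libraries above 10% Bc1 (4 of P522R and 1 of 5xFAD), 9 of the 22 meningeal genes were called higher, with 1 choroid plexus gene and 1 border macrophage gene. Over all genes 381 of 22206 were called higher in that fit, against 1038 of 21280 in the main fit. With 1 library left out, 2 to 6 border macrophage genes were called higher, with 2 or 3 without 5xFAD replicate 1180, 1181, 1190, 1269 or 1270, M28L replicate 9, 11, 15 or 16, or P522R replicate 106. For choroid plexus genes this was 1 to 4, with 1 without 5xFAD replicate 1189, 1190 or 1269. Over all genes the left-out fits called from 555 higher (without 5xFAD replicate 1181) to 1652 (without M28L replicate 28).

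Immediate early genes, which neurons switch on within minutes of activity, were higher too. Of 38 tested 13 were called higher and 0 lower, with a median of 0.32, and 4 were shared (Egr1, Klf4, Fosb and Sik1). Alone, M28L had 7 called higher and 0 lower, and P522R 13 and 0. Egr1, an activity-driven transcription factor, ranged from 235 to 414 CPM (median 264) in 5xFAD, 340 to 563 (median 427) in M28L, and in P522R from 355 to 708 (median 437). In each variant 5 of 8 libraries lay above every 5xFAD library, and Egr1 rose by 0.65 (SE 0.10, adjusted p = 0.00039), with 0.62 in M28L and 0.69 in P522R. Fosb, an AP-1 subunit, rose by 0.62 (SE 0.13, adjusted p = 0.0053), from a median of 13.4 CPM to 23.6 and 19.9. Sik1, a kinase induced by cAMP, rose by 0.60 (SE 0.13, adjusted p = 0.0050), from 8.56 to 12.6 and 12.8 CPM. Klf4, a zinc finger factor also made by endothelium, rose by 0.64 (SE 0.15, adjusted p = 0.0084). Several of the best known genes of the group did not pass: Arc was at 0.63 (SE 0.21, adjusted p = 0.059), Fos at 0.45 (SE 0.20, adjusted p = 0.16), Junb at 0.32 (adjusted p = 0.17) and Npas4 at 0.22 (adjusted p = 0.33), all named after their values were seen.

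Genes of heat shock, glucocorticoid action and the circadian clock were also higher in the mean. Of 28 tested 18 were called higher and 0 lower, with a median of 0.41, and 4 were shared (Sgk1, Tsc22d3, Zbtb16 and Per2). Alone, M28L had 4 called higher and 0 lower, and P522R 19 and 2. Sgk1, Tsc22d3 and Zbtb16 are targets of the glucocorticoid receptor, and Per2 is a clock repressor that glucocorticoids also raise. Sgk1, a kinase, ranged from 46.6 to 63.8 CPM (median 54.0) in 5xFAD, 62.7 to 147 (median 77.2) in M28L, and in P522R from 63.9 to 158 (median 86.6). All P522R libraries and 6 of 8 M28L libraries lay above every 5xFAD library, and Sgk1 rose by 0.71 (SE 0.14, adjusted p = 0.0037). Per2 rose by 0.62 (SE 0.11, adjusted p = 0.0014), from a median of 30.7 CPM to 44.2 in M28L and 37.7 in P522R. Zbtb16 rose by 0.58 (SE 0.10, adjusted p = 0.00091) and Tsc22d3 by 0.41 (SE 0.10, adjusted p = 0.011). The clock activators Arntl (-0.17, adjusted p = 0.12) and Npas2 (-0.14, adjusted p = 0.26) were not called. With the F libraries alone 1 of the 28 genes was called, and with the M libraries alone 14. For the immediate early genes these counts were 1 and 7, for antigen presentation 0 and 5, and for the meningeal genes 5 and 9. Over all genes tested, 42 of 21519 were called with F and 904 of 21280 with M. Fewer genes were thus called with F at large, so the list counts do not show an effect of the letter. The variant difference itself was called as different between the letters at 1 of 21280 genes and at 0 of the shared genes (edgeR, adjusted p), with 554 genes at an unadjusted p below 0.05.

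**Figure D4:**
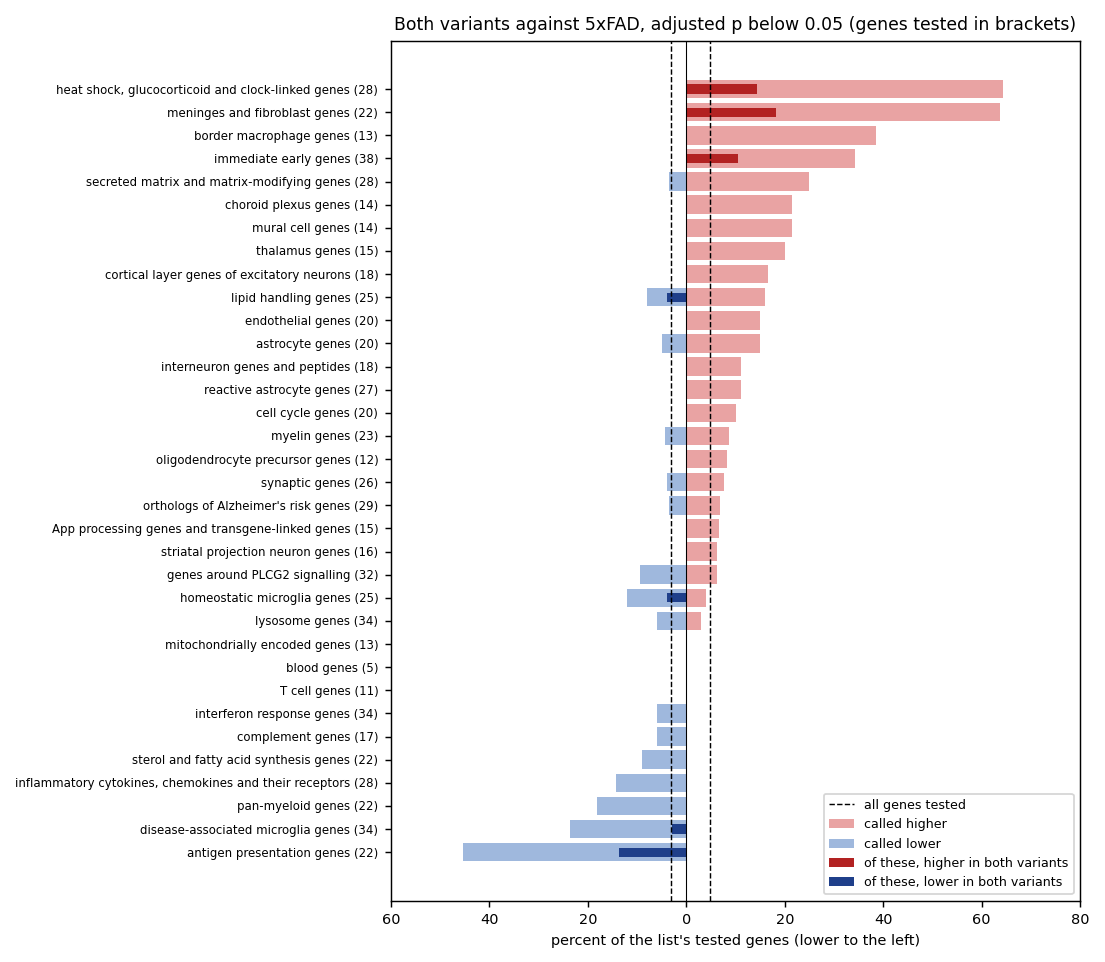
Percent of each list's tested genes (x axis, lower to the left) called higher or lower in the mean of the variants (pale bars) and shared (dark bars), for 34 lists (rows, number tested in brackets); dashed lines mark all genes tested, 4.88% higher and 3.12% lower. The clock and stress, meningeal, border macrophage and immediate early lists lie farthest to the right, in that order, and antigen presentation farthest to the left.

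Other shared genes rose outside these lists. Prr5, a subunit of the kinase complex mTORC2, ranged from 4.63 to 6.76 CPM in 5xFAD, 6.31 to 8.42 in M28L, and in P522R from 9.92 to 16.3. It rose by 0.83 (SE 0.09, adjusted p = 6.4e-06), with 0.40 in M28L and 1.26 in P522R, a difference that passed the test (0.86, SE 0.10, adjusted p = 7.0e-07). Plekhf1, an endosomal adaptor, rose by 0.90 (SE 0.13, adjusted p = 0.00031), with 0.67 and 1.13. Dlk1, a Notch-related membrane protein, rose by 0.76 (SE 0.12, adjusted p = 0.00052), and Ano2, a calcium-activated chloride channel, by 0.64 (SE 0.10, adjusted p = 0.00062). Zc3h6, a zinc finger gene, fell by 0.45 (SE 0.08, adjusted p = 0.0014), with -0.39 and -0.50. These 5 genes were named by rank, and that each moved in 1 direction in both variants follows from the shared rule.

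Of the 62 shared genes 38 had the larger estimate in M28L and 24 in P522R. In 10 the difference between the variants was called, against 34.8% of all genes tested. The shared rule asks for a call in 1 direction in each variant, and M28L had 258 genes called against 6344 in P522R. The rule thereby shapes both that count and the split of larger estimates, which do not show how alike the variants are. The called difference favoured M28L in Col1a1, Actg2, H2-Aa, Lpl and Cx3cr1, and P522R in Prr5, Plekhf1, Kcna5, Mettl3 and Gm19439. Actg2, Kcna5, Mettl3 and Gm19439 were named after their values were seen. For Col1a2 P522R minus M28L was -0.05 (SE 0.11, adjusted p = 0.78) and for Egr1 0.07 (SE 0.11, adjusted p = 0.69), which does not show that the variants act alike.

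Cnn2, Vcl and Actg2 were shared genes outside the lists, named after their values were seen. Cnn2, calponin 2, rose by 0.42 (SE 0.09, adjusted p = 0.0069), from a median of 4.45 CPM to 6.20 in M28L and 5.84 in P522R. Vcl, vinculin of cell adhesions, rose by 0.24 (SE 0.06, adjusted p = 0.013), from 26.6 to 32.6 and 29.6 CPM. Actg2, a smooth muscle actin, stayed below 1 CPM throughout and ranged from 0.024 to 0.144 CPM in 5xFAD, 0.247 to 0.714 in M28L, and in P522R from 0.047 to 0.335. Several motifs were looked for in the 250 bases before the start of the 40 shared genes with a RefSeq promoter on GRCm38.p6. Of these genes Cnn2 and Vcl held a CArG box, the site of serum response factor, as 1.62% of all genes and 1.47% of windows do. The stretches around it, both on the plus strand, are chr10:79988518-79988579 and chr14:20929148-20929206, with the box in capitals.
Cnn2: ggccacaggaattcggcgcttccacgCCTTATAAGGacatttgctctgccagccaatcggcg
Vcl: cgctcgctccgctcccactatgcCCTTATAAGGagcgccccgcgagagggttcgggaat
Both carry the same 10 letters, 56 bases before the start in Cnn2 and 227 in Vcl. The AP-1 motif TGANTCA was in none of the 40 promoters (6.75% of all windows), and TGACGTCA in none of the 30 of genes that rose. The E-box of the clock type, CACGTG, was in 4 of those 30 (13.3%, against 6.86% of all genes), Klf4 and Sgk1 among them. A CCAAT box was in 27 of the 40, against 37.5% of all genes. No match says only that the letters are not in these windows.

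Several of the largest shared differences lay in genes of low counts or without a name, all named after their values were seen. ENSMUSG00000119895.1, a gene of the deposited table without a symbol here (chromosome 12, 54743567 to 54743730 by the table), ranged from 1.74 to 9.72 CPM in 5xFAD, 0.020 to 0.897 in M28L, and in P522R from 0.130 to 0.917. It fell by 4.10 (SE 0.37, adjusted p = 2.7e-07), with -4.31 and -3.89, and had the smallest adjusted p of all shared genes. Rny1 and Rny3, the Y RNAs bound by the protein Ro60, fell by 2.15 (SE 0.40) and 1.77 (SE 0.37), with medians of 0.370 and 0.496 CPM in 5xFAD and medians of 0.053 and 0.141 CPM in M28L and 0.086 and 0.139 CPM in P522R. Both overlapped with 5xFAD in P522R, and Rny1 also in M28L. Oacyl, a predicted acyltransferase, had 1.10 to 2.06 CPM in 5xFAD, 0.605 to 1.03 in M28L and 0.183 to 1.10 in P522R, without overlap before rounding, and fell by 1.24 (SE 0.18, adjusted p = 0.00026).

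In 10 genes (0.047% of those tested) every variant library lay beyond every 5xFAD library in 1 direction. Shared among them were 6: Col1a1, Col1a2, Kcna5, Oacyl, 2410022M11Rik and ENSMUSG00000119895.1. The other 4 missed the threshold in M28L, among them Herpud1, a gene of the endoplasmic reticulum stress response, which rose by 0.45 in the mean with 0.31 in M28L (adjusted p = 0.053) and 0.60 in P522R. Kcna5, a potassium channel, ranged from 7.13 to 9.28 CPM in 5xFAD, 10.1 to 12.1 in M28L, and in P522R from 10.5 to 17.5, and rose by 0.62 (SE 0.08, adjusted p = 0.00014). Herpud1 and Kcna5 were named after their values were seen.

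Both variants lie in Plcg2, so its neighbourhood was counted apart. Within 6 Mb on each side of Plcg2, 12 of 134 tested genes were called in the mean (8.96%, against 7.99% over all genes), and 2 were shared (1.49%, against 0.291%). These were Banp, a nuclear matrix protein, at 4.31 Mb, which rose by 0.47 (SE 0.11, adjusted p = 0.011), and Cbfa2t3, a corepressor of blood cell genes, at 4.99 Mb, which rose by 0.39 (SE 0.08, adjusted p = 0.0028). Both distances come from the deposited table, and both genes were named after their values were seen. The shared rule held for Banp in 8 of 24 fits with 1 library left out, and for Cbfa2t3 in 24. The genes just inside the threshold of the mean were Card14, Fkbp10, Zfp106, 2310009B15Rik and Ripply2, and those just outside were Cpt1c, Dhrs13, Rad54l2, Gm48226 and Prtg, all at an adjusted p of 0.05 when rounded.

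Transcript GC content moved with the calls of the mean. Its median was 53.8% in the genes called higher, 47.4% in those called lower and 49.2% over all genes. In the shared genes these medians lay closer together, 52.0% in the 44 that rose and 49.9% in the 17 with a value that fell. When GC content and length entered as offsets, 3620 genes were called in the mean and 207 were shared, 40 of them among the 62.

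The counts also rested on single libraries. Leaving out 1 library at a time gave 903 to 2621 genes called in the mean and 32 to 82 shared genes, of which 31 to 57 were among the 62. No shared gene changed direction in any of the 38 alternatives that tested it, and 61 of 62 stayed called in the mean with each library left out, Gpc3 being the exception. The full shared rule held in every such fit for 20 genes, among them Col1a1, Col1a2, Fn1, Bgn, Egr1, Fosb, Per2, Zbtb16, Lpl, Kcna5, Oacyl and ENSMUSG00000119895.1. Prr5, Egr1 and ENSMUSG00000119895.1 were called in the mean in every alternative that tested them, while Prr5 met the shared rule in 11 of the 24 fits with 1 library left out. H2-Aa met it in 16, H2-T23 in 21, Nlrc5 in 11, H2-Q4 in 14 and Sgk1 in 14.

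**Figure D5:**
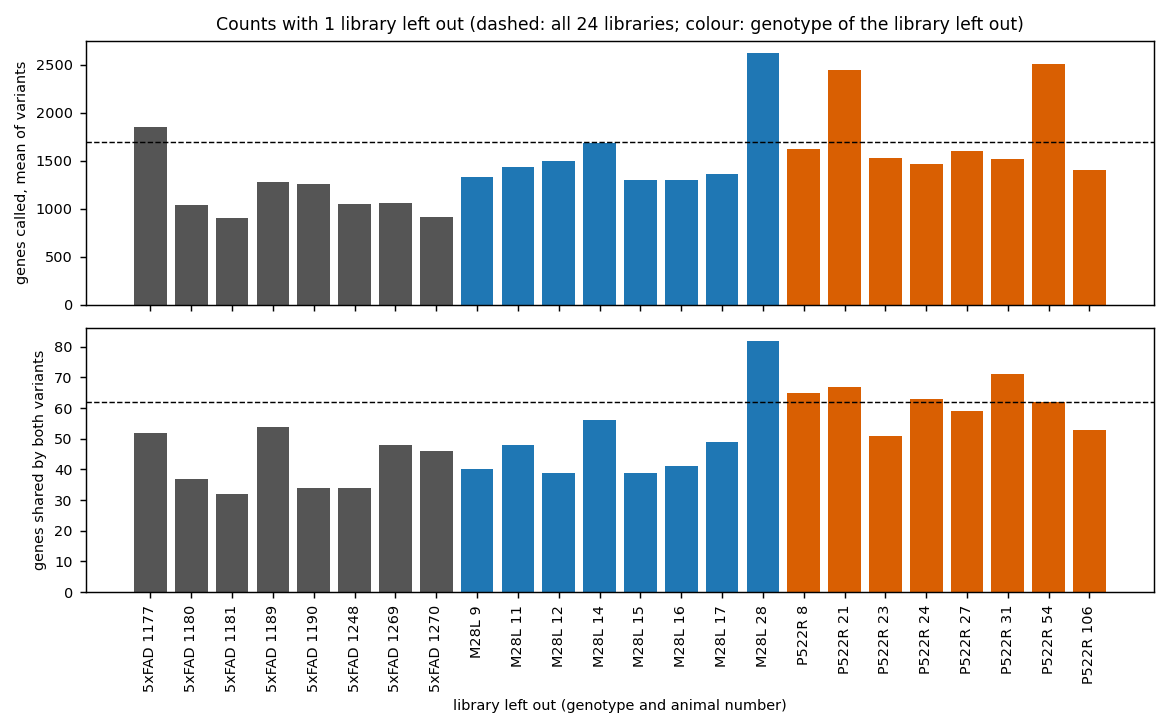
Number of genes called in the mean of the variants (top) and number of shared genes (bottom), both from 0 on the y axis, with the library named on the x axis left out; the dashed lines mark 1701 and 62 with all libraries. The fewest are found without 5xFAD replicate 1181, 903 and 32, and the most without M28L replicate 28, 2621 and 82.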

How the data were processed

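RNA was isolated from cortex by chloroform extraction and column purification and made into libraries with a KAPA mRNA kit, per the labels' protocols. The deposited table holds whole-number read counts per gene, not normalized. Reads were processed with STAR 2.7.2b and featureCounts, per the submitters' processing notes. The genome build, annotation and strand setting are not given in the sources used here, so antisense and overlapping genes cannot be told apart. Coordinates of genes are as the deposited table gives them. Symbols were matched for 52093 of 53647 gene identifiers (97.1%) through GENCODE M21, and only 2.8% had the same start and end there.

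The genes and lists were chosen with earlier results of these data known. Counts were filtered with filterByExpr, scaled by TMM and fitted with edgeR 4.0.16 (R 4.3.3, quasi-likelihood test) with 3 genotypes and the title letter, over all 24 libraries. The contrast was the mean of both variants minus 5xFAD, and p-values were adjusted by Benjamini-Hochberg over 21280 genes. CPM are computed from TMM-scaled library sizes. Log2 differences are those of the fit, and library measures were compared by exact permutation. Alternatives used DESeq2 1.42.0, limma 3.58.1 (voom), other scalings, filters, covariates and left-out libraries.

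Genes were named by rule: Plcg2, App, Thy1 and Bc1, up to 12 largest rises and 12 largest falls among shared genes with a mean of at least 1 CPM, leaving out predicted models, pseudogenes and genes without symbol, up to 4 shared genes of each of 34 lists by smallest p, up to 5 genes called in opposite directions, and up to 5 on each side of the threshold. Other genes, further list members among them, fall outside this rule. Many of them are said to be named after their values were seen, though not all are marked so. Some genes are not reported here.

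The procedure was tested on simulated data with 20967 genes. Of genes changed by 1 (log2) in both variants, 100% were called in the mean and 98% as shared. With a change of 0.5 these were 82% and 64%. Of genes changed by 1 in P522R only, 80% were called in the mean and 0% as shared. Unchanged genes made up 4.03% of the calls in the mean. Genes not changed in both variants made up 0.61% of the shared calls. The data had 6344 genes called in P522R, so these rates hold for the simulated setting only.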

Additional observations from a re-analysis of the deposited data

Results flagged for a closer look

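In 18 of 255 groups of 8 libraries, 1 library lay apart from the others by more than Dixon's 95% critical value, 8 in 5xFAD, 7 in M28L and 3 in P522R. Chance alone flags about 1 in 20 groups. Gene values were tested as log2 CPM.

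5xFAD replicate 1180 was the lowest of its group for Col1a1 (3.04 CPM, next 5.38), Col1a2 (9.29, next 12.5) and Bgn (8.11, next 12.0). Its total count of 79230000 was also the lowest, and 23.3% of its counts came from the 50 most abundant genes, the highest in 5xFAD. Without it Col1a1 rose by 0.96 (edgeR adjusted p = 0.0012), Col1a2 by 0.68 (adjusted p = 0.00043) and Bgn by 0.64 (adjusted p = 0.0012). Fosb was highest in 5xFAD replicate 1269 (23.9 CPM, next 14.5), and without it rose by 0.72 (adjusted p = 0.0030). Myof was lowest in 5xFAD replicate 1248 (1.80 CPM) and 5031425E22Rik in 5xFAD replicate 1177 (8.41 CPM).

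M28L replicate 28 had the highest share of its group for Bc1 (6.01%), mitochondrially encoded genes (7.59%) and the 50 most abundant genes (21.4%). Cdhr1 was highest in M28L replicate 12 (27.1 CPM) and Ccnd2 in M28L replicate 9 (98.1 CPM). H2-Eb1 (1.54 CPM) and Cd74 (3.97 CPM) were lowest in M28L replicate 11. In P522R, 2410022M11Rik was highest in replicate 8 (2.06 CPM) and Dcn in replicate 21 (30.6 CPM), and the 50 most abundant genes took 32.0% of the counts of replicate 24.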

How the results depend on the processing

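The count of 1701 genes called in the mean was 6469 with limma-voom and sample weights, 712 without the letter, 42 with F and 904 with M libraries alone, 3620 with GC and length offsets, 165 with both variants as 1 group, and 704 without the 5 libraries above 10% Bc1, an alternative chosen after seeing the data. The 62 shared genes became 137 with DESeq2, 724 with voom, 18 without the letter, 13 with F and 1 with M libraries alone, 10 with the Bc1 share as a covariate and 207 with the offsets. P522R against M28L gave 20 genes with the Bc1 covariate and 2959 without those 5 libraries, in place of 7405. With the title prefix as a replicate block these 3 counts were 21, 3 and 1226. Over 9 pairs of 1 prefix in 2 genotypes the correlation of deviations ran from -0.07 to 0.15, with 2 above 0.1 and a median of 0.006. The median of other pairs of 1 letter and 2 genotypes was -0.003. So few pairs cannot show whether the prefix marks a pairing of libraries. The block kept 15 libraries. Leaving out 1 library gave 903 to 2621 genes called in the mean. It moved over 1.5 times without 5xFAD replicate 1180 (1044), 1248 (1047), 1181 (903), 1269 (1063) or 1270 (914), and without M28L replicate 28 (2621). The shared count ran from 32 to 82, moving as far without 5xFAD replicate 1180 (37), 1190 (34), 1248 (34) or 1181 (32), and M28L replicate 12 (39), 16 (41), 15 (39) or 9 (40). M28L against 5xFAD gave 540 genes with DESeq2, 1937 with voom, 628 with the offsets, 49 without the letter, 102 with F and 5 with M libraries alone and 72 with the Bc1 covariate, in place of 258, with fewer also under the block, and 157 to 308 with 1 library left out, the least without 5xFAD replicate 1190 (157), 1180 (158), 1248 (160) or 1181 (163). P522R gave 889 with the Bc1 covariate, 909 with the block, 2927 with F libraries alone and 2563 without the 5 libraries, in place of 6344. The share called higher was 61.0% in the main fit, 46.1% with upper-quartile factors, 48.6% with voom and 47.5% with the offsets. Detected genes differed by -2372 with M libraries alone (exact permutation adjusted p = 0.15). The Bc1 share differed by -1.81 percentage points in M28L and 4.34 in P522R, and that of the 50 most abundant genes by -2.09 and 4.13. The cause was not tested for any of these, apart from the fewer libraries of the left-out fits. DESeq2 (2442 in the mean), RLE and upper-quartile factors and other filters kept the remaining counts within 1.5 times.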

Other observations

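Other lists are given against the 4.88% of all genes called higher and the 3.12% called lower in the mean of the variants. Of 34 interferon response genes 2 were called lower and 0 higher, with a median of -0.18. Of 28 cytokine genes 4 were called lower and 0 higher. Of 34 lysosome genes 1 was called higher and 2 lower, with a median of 0.00, and of 26 synapse genes 2 were called higher and 1 lower. No gene of the 13 mitochondrially encoded ones or of the 11 T cell genes was called.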
